A study of Rattus norvegicus with 12 samples.

Results

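The 9 genes that encode alternative forms of 4 glycolytic enzymes were followed as isoform ratios in rat ovary, namely Ldha and Ldhb, Hk1 and Hk2, Aldoa and Aldoc, and Pfkp, Pfkl and Pfkm. The 9 genes were found by symbol among the 19730 genes of the deposited table, and all 9 averaged at least 1 FPKM (fragments mapped to a gene, scaled by its length and by the library total). They were chosen by their measured FPKM differences between PCOS and each of the other groups, so their differences between groups are descriptions, with no test. Ovaries came from 12 female wild type Sprague Dawley rats labelled as post natal week 15, with 1 RNA-seq library per rat and 4 rats per group. The Control rats were untreated and, by the study's methods, kept on standard food. The PCOS rats, a model of polycystic ovary syndrome, received letrozole, an aromatase inhibitor, for 30 days together with a high-fat diet. The PCOS-MV rats had the same letrozole and diet and then received mogroside V, a sweet glycoside of monk fruit, for 30 days. Control therefore differs from the other groups in both the drug and the diet, and these cannot be told apart here. By the study's methods, letrozole and the diet were given in the 30 days before mogroside V began. All rats were killed at the end of the whole treatment period, so the PCOS ovaries were taken after letrozole had ended. The methods describe no gavage of the PCOS rats in the mogroside V period. The study reports prolonged diestrus in the PCOS rats and a gradual return of the cycle with mogroside V. It gives no cycle stage at killing, so stage and group cannot be told apart here. The ovary is a mixture of cell types, and in such bulk samples fewer cells of a type and less RNA per cell cannot be told apart.

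Glycolysis turns glucose into pyruvate, and mammals carry several genes for most of its steps. Hexokinases phosphorylate glucose on entry, and Hk1 is the form found in most tissues while Hk2 is the inducible form of muscle, fat and many growing cells. Phosphofructokinase commits sugar to the pathway as a tetramer of muscle (Pfkm), liver (Pfkl) and platelet (Pfkp) subunits. Aldolase then splits the sugar, and Aldoa is the widespread form while Aldoc is best known from brain. Lactate dehydrogenase interconverts pyruvate and lactate as a tetramer of A and B subunits, the A-rich forms being typical of glycolytic tissue and the B-rich forms of heart. In the follicle, granulosa cells and cumulus cells are known to supply pyruvate and lactate to the oocyte.

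In the table's own coordinates, whose genome build is not given in the sources used here, Ldha lies on chromosome 1 from 102900286 to 102909707 and Aldoa on the same chromosome from 198228387 to 198233588. Ldhb lies on chromosome 4 from 176701983 to 176720012, and Hk2 on chromosome 4 from 113559427 to 113610243. Hk1 lies on chromosome 20 from 31912262 to 31956649, and Pfkl on chromosome 20 from 11393877 to 11415882. Aldoc lies on chromosome 10 from 65586504 to 65590126, Pfkp on chromosome 17 from 68511064 to 68559471 and Pfkm on chromosome 7 from 139685573 to 139722132. Aldoa and Ldha have processed copies in mammalian genomes that can share reads with them, so their levels are uncertain to that degree.

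The promoters of the 4 genes whose levels set the largest differences in ratio between groups are given here as the 250 bases before the RefSeq start site in the GRCr8 assembly, on the gene's own strand. Capitals mark ACGTG, the core of the hypoxia response element, and GCGTG, a variant of it, read on both strands. Each stretch of capitals read on the opposite strand appears as CACGT or CACGC, and a CACGTG holds ACGTG on both strands at once.
Ldha (GRCr8 chr1:106507842-106508091, plus strand): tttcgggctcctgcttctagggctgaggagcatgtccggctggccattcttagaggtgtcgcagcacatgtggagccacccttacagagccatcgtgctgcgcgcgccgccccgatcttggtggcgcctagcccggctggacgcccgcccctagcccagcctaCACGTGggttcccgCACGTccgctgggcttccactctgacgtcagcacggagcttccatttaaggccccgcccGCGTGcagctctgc
Ldhb (GRCr8 chr4:177177409-177177658, minus strand): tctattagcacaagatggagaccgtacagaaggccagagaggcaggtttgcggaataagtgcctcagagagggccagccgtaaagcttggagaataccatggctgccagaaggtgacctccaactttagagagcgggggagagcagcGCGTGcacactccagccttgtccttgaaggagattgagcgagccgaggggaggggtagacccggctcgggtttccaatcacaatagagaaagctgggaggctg
Aldoc (GRCr8 chr10:63715294-63715543, plus strand): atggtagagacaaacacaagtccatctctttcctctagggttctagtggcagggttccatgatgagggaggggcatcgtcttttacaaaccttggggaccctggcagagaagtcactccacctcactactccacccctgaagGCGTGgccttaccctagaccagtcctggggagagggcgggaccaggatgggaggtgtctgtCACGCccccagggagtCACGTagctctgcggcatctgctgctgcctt
Pfkp (GRCr8 chr17:68639563-68639812, plus strand): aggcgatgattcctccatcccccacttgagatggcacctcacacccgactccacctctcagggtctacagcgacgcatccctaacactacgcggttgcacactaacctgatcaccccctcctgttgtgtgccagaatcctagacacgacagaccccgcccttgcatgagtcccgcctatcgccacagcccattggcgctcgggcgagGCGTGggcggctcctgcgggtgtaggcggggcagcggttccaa
The Ldha promoter holds 3 ACGTG matches, of which 2 overlap in 1 CACGTG that starts 87 bases before the start site, and 1 GCGTG. Aldoc holds 1 ACGTG and 2 GCGTG, and Ldhb and Pfkp hold 1 GCGTG each. Counted over all start sites of the 9 genes, 8 of 12 promoters hold ACGTG or GCGTG, and 36.7% of the 33469 rat promoters in the table do so. ACGTG alone is in 5 of the 12 and in 16.6% of all promoters. A match describes these letters only and says nothing of binding.

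Control replicate 3 stood apart in cell type markers as well as in Aldoc. It was singled out with the values of the 9 genes known. Of 5 markers listed for oviduct epithelium, 3 were found by symbol (Pax8, Dnah5 and Tekt1), and their summed level was 21.1 FPKM in this library and 2.14 to 3.70 FPKM in the other 11. Dnah5, a dynein of motile cilia, was at 3.04 FPKM there, at 0.0112 to 0.327 FPKM in the other Control libraries and at or near 0 in the rest, with highest values of 0.0131 FPKM in PCOS and 0.00651 FPKM in PCOS-MV. The 7 smooth muscle markers summed to 1004 FPKM in Control replicate 3 and to between 361 and 740 FPKM in the other libraries. The ratios of the 9 genes that involve the Control group are therefore given with and without this library. Summed FPKM over all genes was 339830 to 373758 per library, and the depth in reads is not given. Steps among the lowest values put the depth at 0.917 to 1.12 times that of Control replicate 1. The best of many steps tried held 20.2% to 24.2% of low values, while 4% would fall on any given step by chance. These shares are not alike, since the step was picked for its share. The steps tried spanned a limited range, which bounds how far the relative depths could differ. A ratio of 2 genes within a library does not depend on how that library was scaled. Its absolute level does depend on the gene lengths used for FPKM, which in the table are 2682 bases for Hk1 and 5432 bases for Hk2.

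Per length, Aldoa was the most abundant of the 9 genes, with a mean of 467 FPKM over the 12 libraries, followed by Ldha at 159 FPKM and Ldhb at 112 FPKM. Pfkp was at 70.2 FPKM, Hk1 at 55.3 FPKM, Pfkl at 28.6 FPKM and Pfkm at 22.6 FPKM. Aldoc, at 14.6 FPKM, and Hk2, at 11.6 FPKM, were the lowest. Each neighbour in this order overlapped the next over the 12 libraries, except Aldoa, which lay above Ldha throughout. Between the PCOS and Control groups, 4 of the 9 genes had FPKM values that did not overlap, Ldhb higher and Hk1, Hk2 and Pfkp lower in the PCOS group. Of the 13430 genes averaging at least 1 FPKM, 31% were separated in this way, 13.8% higher and 17.2% lower. Between the PCOS-MV and PCOS groups, 6 of the 9 did not overlap, with Ldha, Hk1, Hk2 and Pfkp higher and Ldhb and Aldoc lower in the PCOS-MV group, beside 30% of all genes tested (16.7% higher and 13.3% lower). Both comparisons use the same 4 PCOS libraries. Between the PCOS-MV and Control groups all 9 genes overlapped, where 5.1% of all genes tested did not, and the choice of genes favours such overlap.

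**Figure D1:**
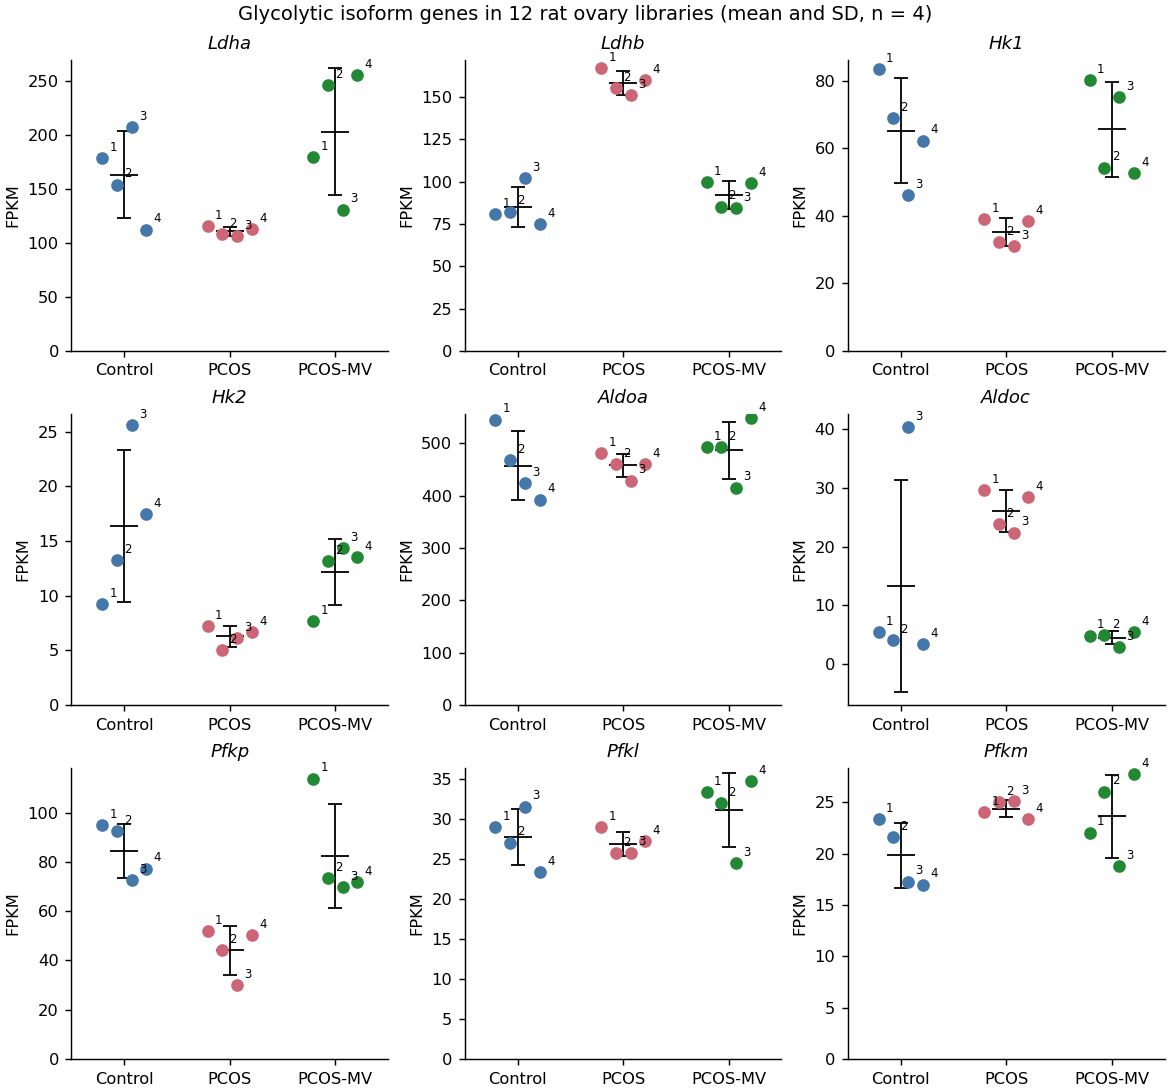
FPKM (y axes, linear) of the 9 isoform genes in the 12 libraries, by group (x axes). Points are libraries numbered by replicate and bars are the mean and SD of 4 libraries. Ldhb is highest in the 4 PCOS libraries, Hk1, Hk2 and Pfkp are lowest there, and Aldoc is low in all Control and PCOS-MV libraries except Control replicate 3.

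The leading lactate dehydrogenase gene was Ldhb in PCOS and Ldha in the other groups. Ldha was at 179, 154, 207 and 112 FPKM in Control replicates 1 to 4, at 115, 108, 106 and 112 FPKM in PCOS and at 179, 245, 131 and 255 FPKM in PCOS-MV. Ldhb was at 80.8, 82.3, 102 and 75.0 FPKM in Control, at 167, 155, 151 and 160 FPKM in PCOS and at 99.7, 85.3, 84.4 and 99.4 FPKM in PCOS-MV. Ldha thus exceeded Ldhb in all 8 Control and PCOS-MV libraries, and Ldhb exceeded Ldha in all 4 PCOS libraries. The ratio of Ldha to Ldhb was 2.21, 1.87, 2.02 and 1.49 in Control, 0.690, 0.694, 0.702 and 0.702 in PCOS and 1.80, 2.88, 1.55 and 2.56 in PCOS-MV. On the log2 scale its mean was 0.91 ± 0.24 in the Control group, -0.52 ± 0.01 in the PCOS group and 1.09 ± 0.42 in the PCOS-MV group (SD, n = 4). The PCOS libraries lay below every Control library and every PCOS-MV library. The geometric mean ratio was 2.70-fold lower in the PCOS than in the Control group, and 3.05-fold higher in the PCOS-MV than in the PCOS group. Without Control replicate 3 the first of these was 2.63-fold.

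The summed level of the family did not separate the groups while its make-up did. Ldha, Ldhb and the testis form Ldhc together gave 249 ± 52.1 FPKM in Control, 269 ± 11.1 FPKM in PCOS and 295 ± 61.8 FPKM in PCOS-MV (SD, n = 4), with overlapping ranges. Ldha made up 59.9% to 68.9% of this sum in Control, 40.8% to 41.2% in PCOS and 60.7% to 74.2% in PCOS-MV. The opposite directions of its 2 genes give the ratio its size. Ldha alone was at a log2 difference of -0.52 in the PCOS vs Control comparison, and Control replicate 4 lay within the PCOS range. Ldhb alone was at 0.90, with no overlap. Ldhc was at 0.0929 FPKM or less except in Control replicate 3, where it was at 3.29 FPKM.

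**Figure D2:**
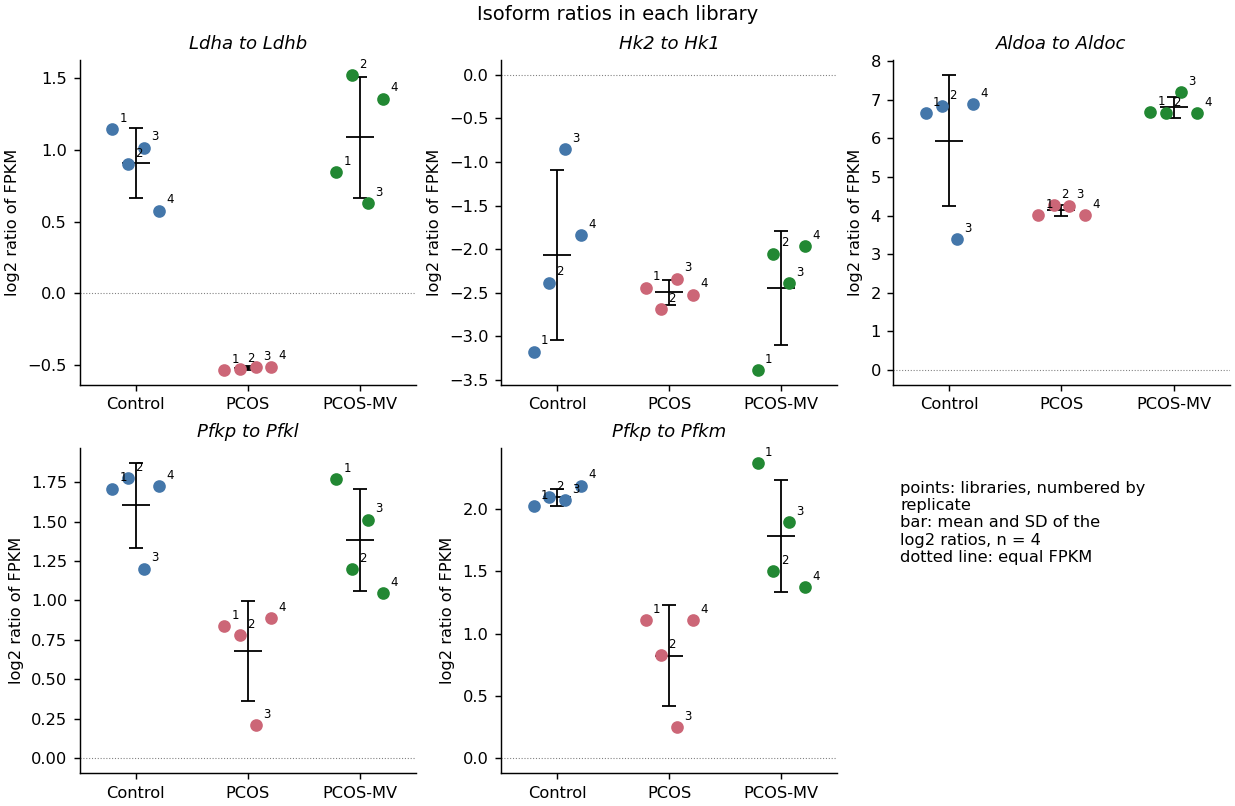
Log2 ratio of the FPKM of isoform genes (y axes) in each library, by group (x axes). Points are libraries numbered by replicate, bars are the mean and SD of 4 libraries and the dotted line marks equal FPKM. The 4 PCOS libraries lie below 0 for Ldha to Ldhb and below all other libraries for Pfkp to Pfkl and Pfkp to Pfkm, while the 3 groups overlap for Hk2 to Hk1.

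The hexokinase pair showed the reverse arrangement, with lower levels in the PCOS group and ratios that overlapped. Hk1 was at 83.5, 69.0, 46.2 and 62.3 FPKM in Control, at 39.1, 32.2, 31.0 and 38.4 FPKM in PCOS and at 80.3, 54.3, 75.1 and 52.6 FPKM in PCOS-MV. Hk2 was at 9.25, 13.2, 25.6 and 17.4 FPKM in Control, at 7.19, 5.01, 6.14 and 6.69 FPKM in PCOS and at 7.67, 13.1, 14.3 and 13.5 FPKM in PCOS-MV. Both genes were lowest in the PCOS group, without overlap. Their sum with Hk3 was 83.2 ± 9.08 FPKM in Control, 42.4 ± 4.83 FPKM in PCOS and 80.1 ± 12.6 FPKM in PCOS-MV (SD, n = 4). Hk1 was the largest of the 3 in every library, from 63.1% of the sum in Control replicate 3 to 90.2% in PCOS-MV replicate 1.

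The ratio of Hk2 to Hk1 was 0.111, 0.192, 0.554 and 0.280 in Control, 0.184, 0.156, 0.198 and 0.174 in PCOS and 0.0955, 0.241, 0.191 and 0.256 in PCOS-MV. The 3 groups overlapped. On the log2 scale the PCOS mean was 0.43 below the Control mean, and the PCOS-MV mean was 0.05 above the PCOS mean, with SDs of 0.98, 0.15 and 0.65 in the 3 groups from Control to PCOS-MV (n = 4). The first of these differences rested on single Control libraries. It was -0.03 without Control replicate 3, which held the highest Hk2 and the lowest Hk1 of its group, and -0.81 without Control replicate 1, which held the lowest Hk2 and the highest Hk1. The second took either sign with 1 library left out, from -0.11 without PCOS-MV replicate 4 to 0.36 without PCOS-MV replicate 1. The PCOS libraries were thus set apart by the level of Hk2 and not by its ratio to Hk1.

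In the aldolase pair the minor form carried the difference. Aldoa was at 545, 468, 424 and 393 FPKM in Control, at 482, 461, 429 and 461 FPKM in PCOS and at 493, 492, 415 and 548 FPKM in PCOS-MV, and the 3 groups overlapped. Aldoc was at 5.37, 4.08, 40.3 and 3.33 FPKM in Control, at 29.7, 23.8, 22.4 and 28.5 FPKM in PCOS and at 4.78, 4.85, 2.84 and 5.40 FPKM in PCOS-MV. Aldoc was higher in every PCOS library than in every library of the other groups except Control replicate 3, where it was the highest of all 12. The ratio of Aldoa to Aldoc was 101.5, 114.5, 10.5 and 117.9 in Control, 16.2, 19.3, 19.2 and 16.2 in PCOS and 103.1, 101.5, 146.3 and 101.4 in PCOS-MV. Its mean on the log2 scale was 5.95 ± 1.70 in the Control, 4.14 ± 0.14 in the PCOS and 6.80 ± 0.26 in the PCOS-MV group (SD, n = 4). The PCOS-MV and PCOS libraries did not overlap, with a geometric mean 6.32-fold higher in the PCOS-MV group. The PCOS and Control libraries overlapped through Control replicate 3. With it the geometric mean was 3.49-fold lower in the PCOS group, and without it the groups did not overlap and the ratio was 6.29-fold lower.

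Aldoc was a small part of the sum of Aldoa and Aldoc in every library. It made up 0.841% to 8.68% of that sum in Control, the highest in replicate 3, 4.92% to 5.82% in PCOS and 0.679% to 0.977% in PCOS-MV, and the sum itself was 471 ± 63.3, 484 ± 24.8 and 491 ± 55.6 FPKM in the 3 groups from Control to PCOS-MV (SD, n = 4). The high Aldoc of Control replicate 3 came with 21.1 FPKM of oviduct epithelium markers and 1004 FPKM of smooth muscle markers, whose part in it was not tested. In the PCOS libraries, where Aldoc was also high, the oviduct epithelium markers summed to 2.31 to 3.70 FPKM.

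**Figure D3:**
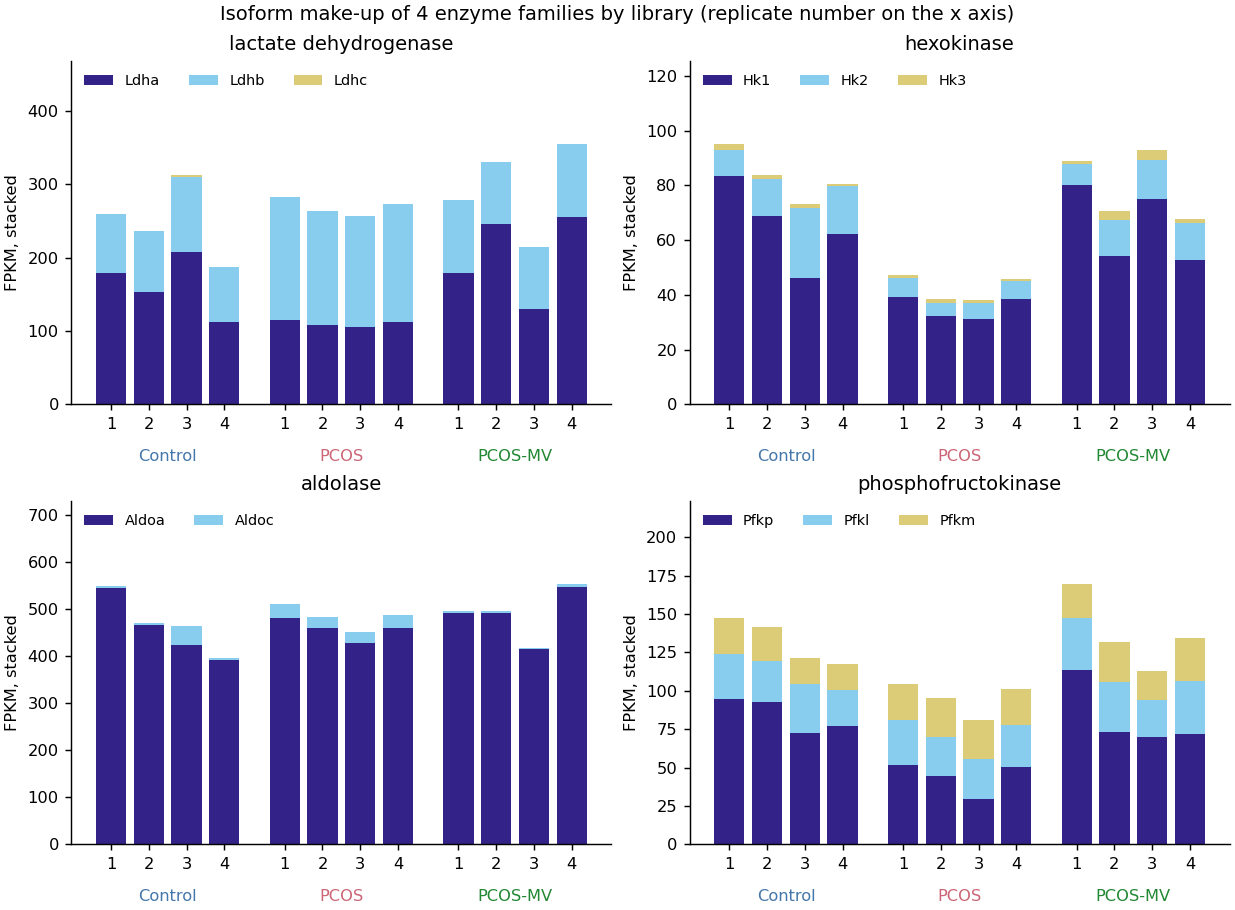
FPKM of each isoform gene (y axes, stacked, starting at 0) in each library (x axes, replicate number within group) for 4 enzyme families. The lactate dehydrogenase bars have similar heights with a larger Ldhb part in PCOS, the hexokinase bars are lower in PCOS, the aldolase bars are nearly all Aldoa, and the phosphofructokinase bars are lower in PCOS, where their Pfkp part is smaller.

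Among the phosphofructokinases, Pfkp was the form whose own level separated the PCOS group. Pfkp was at 94.98, 92.6, 72.6 and 77.3 FPKM in Control, at 51.8, 44.3, 29.9 and 50.4 FPKM in PCOS and at 113.8, 73.5, 69.8 and 71.8 FPKM in PCOS-MV. Pfkl was at 23.4 to 31.6 FPKM in Control, 25.8 to 29.0 FPKM in PCOS and 24.5 to 34.7 FPKM in PCOS-MV, and Pfkm at 17.0 to 23.4, 23.4 to 25.1 and 18.8 to 27.8 FPKM. Pfkp was below all other libraries in the PCOS group, while Pfkl and Pfkm overlapped between the groups, Pfkm only narrowly between PCOS and Control. The summed level of the 3 genes was 132 ± 14.6 FPKM in Control, 95.4 ± 10.5 FPKM in PCOS and 137 ± 23.5 FPKM in PCOS-MV (SD, n = 4), and Pfkp made up 59.8% to 65.7%, 37.0% to 49.9% and 53.4% to 67.3% of it.

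The ratio of Pfkp to Pfkl was 3.27, 3.42, 2.30 and 3.31 in Control, 1.79, 1.72, 1.16 and 1.85 in PCOS and 3.41, 2.30, 2.85 and 2.07 in PCOS-MV. The ratio of Pfkp to Pfkm was 4.06, 4.28, 4.20 and 4.55 in Control, 2.15, 1.77, 1.19 and 2.15 in PCOS and 5.16, 2.82, 3.71 and 2.58 in PCOS-MV. For both ratios the PCOS libraries lay below every other library. The geometric mean of Pfkp to Pfkl was 1.90-fold lower in the PCOS than in the Control group, or 2.08-fold without Control replicate 3, and 1.63-fold higher in the PCOS-MV than in the PCOS group. That of Pfkp to Pfkm was 2.41-fold lower, or 2.43-fold without Control replicate 3, and 1.95-fold higher. Pfkl to Pfkm, which leaves Pfkp out, was 1.24 to 1.83 in Control, 1.03 to 1.20 in PCOS and 1.23 to 1.51 in PCOS-MV. This difference was smaller, and the PCOS libraries again lay below all others without overlap. Without Control replicate 3, the library at 1.83, the Control range was 1.24 to 1.38.

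Between the PCOS-MV and Control groups all 5 ratios overlapped. The genes were chosen by their differences from the same PCOS libraries in both groups, a choice that favours like values in PCOS-MV and Control, so these ratios too are given without a test. The geometric mean of Ldha to Ldhb was 1.13-fold higher in the PCOS-MV group, and 1.16-fold without Control replicate 3. Pfkp to Pfkl was 0.858 times the Control ratio and Pfkp to Pfkm 0.806 times it, or 0.782 and 0.801 times without Control replicate 3. Hk2 to Hk1 was 0.765 times the Control ratio, and 1.01 times without Control replicate 3. Aldoa to Aldoc was 1.81-fold higher, and at a log2 difference of 0.01 without Control replicate 3.

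Within the PCOS-MV group the ratios were not uniform. Replicates 1 and 3 had the lower Ldha to Ldhb (1.80 and 1.55, against 2.88 and 2.56), the higher Pfkp to Pfkl (3.41 and 2.85, against 2.30 and 2.07), the higher Pfkp to Pfkm (5.16 and 3.71, against 2.82 and 2.58) and the higher Hk1 (80.3 and 75.1 FPKM, against 54.3 and 52.6 FPKM). The same libraries had the higher luteal markers. Of 8 listed luteal genes 6 were found (Lhcgr, Star, Scarb1, Cyp11a1, Ptgfr and Prlr), and they summed to 6929 and 6400 FPKM in PCOS-MV replicates 1 and 3 and to 2964 and 2961 FPKM in replicates 2 and 4. The Control libraries ranged from 4279 to 8015 FPKM and the PCOS libraries from 1828 to 3467 FPKM. None of the 6 was at 0 in any library. Star, Scarb1 and Cyp11a1 gave most of each sum, and the other luteal genes did not all move with it. Lhcgr, the receptor for luteinizing hormone, was at 113 to 199 FPKM in PCOS and 28.7 to 78.2 FPKM in Control, higher without overlap, and Prlr, the prolactin receptor, overlapped at 94.4 to 123 and 88.6 to 119 FPKM. Within PCOS-MV, Ptgfr was lowest in replicate 1, while the other 5 were higher in replicates 1 and 3 than in replicates 2 and 4. PCOS-MV replicates 2 and 4 thus overlapped the PCOS libraries in their luteal sum and had the highest Ldha to Ldhb of all 12 libraries. Yet 3 of the 6 luteal genes separated the PCOS-MV from the PCOS libraries, beside 30% of all genes tested. Star was higher (1631 and 1589 FPKM in replicates 2 and 4, against 462 to 1151 FPKM in PCOS). Ptgfr was also higher, at 50.3 FPKM or more in PCOS-MV and 31.8 FPKM or less in PCOS. Lhcgr was lower, at 97.8 FPKM or less in PCOS-MV and 113 FPKM or more in PCOS.

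Sums of the other cell type markers moved with the groups for some lists only. The leukocyte, proliferation, smooth muscle, skeletal muscle and oviduct epithelium sums overlapped between all groups. The 7 erythroid markers summed to 1009 to 1564, 618 to 1577 and 332 to 856 FPKM from Control to PCOS-MV. Only PCOS-MV and Control did not overlap in this sum. The 10 oocyte markers summed to 16.6 to 28.2, 15.5 to 18.7 and 19.0 to 28.8 FPKM, with PCOS-MV narrowly above PCOS. The 6 theca and interstitial markers, all found (Cyp17a1, Insl3, Nr2f2, Tcf21, Gli1 and Ptch1), summed to 129 to 169 FPKM in Control, 1716 to 3211 FPKM in PCOS and 127 to 212 FPKM in PCOS-MV, most of it from Cyp17a1 and Insl3 in the PCOS group. The 9 granulosa markers summed to 728 to 1005, 1135 to 1640 and 646 to 1194 FPKM, and the 5 endothelial markers found of 6 to 104 to 133, 60.5 to 76.7 and 86.8 to 129 FPKM. The granulosa list was mixed. Between PCOS and Control, 4 of the 9 were higher without overlap (Fshr, Cyp19a1, Inha and Inhba, of which Inha and Inhba gave most of the sum), and 5 overlapped, among them Amh, Inhbb and Nr5a2 with lower medians in PCOS (23.8, 56.0 and 24.1 FPKM, against 44.9, 89.4 and 44.5 FPKM). Of the theca and interstitial list, 4 of 6 were higher in PCOS than in Control without overlap, and Ptch1 was lower. Between PCOS-MV and PCOS, 4 of the 6 were lower without overlap (Cyp17a1, Insl3, Nr2f2 and Gli1), while Tcf21 and Ptch1 overlapped. Tcf21 was higher in PCOS-MV than in Control without overlap. All 5 endothelial markers were lower in PCOS than in Control without overlap. Between PCOS-MV and PCOS, only Cdh5 and Kdr of these 5 were higher without overlap. Tek was at 13.3 to 16.4 FPKM in PCOS-MV and 12.9 to 15.1 FPKM in PCOS. Of all genes tested, 31% did not overlap between PCOS and Control (13.8% higher and 17.2% lower). Between PCOS-MV and PCOS the share was 30% (16.7% higher and 13.3% lower). The 6 adipocyte markers summed to 33.7 to 107 FPKM in Control, 15.7 to 28.2 FPKM in PCOS and 18.4 to 48.2 FPKM in PCOS-MV. Of the 6, 4 were lower in PCOS than in Control without overlap. In PCOS-MV, 5 (Adipoq, Plin1, Cidec, Lep and Cfd) were lower than in Control without overlap, beside 2.29% of all genes tested. Only Fabp4 was higher in PCOS-MV than in PCOS without overlap (3.63 to 33.8 FPKM, against 1.28 to 2.87 FPKM). The theca and interstitial sum and the endothelial sum separate the PCOS libraries from all others. The ratios of Ldha to Ldhb, of Pfkp to its partners, of Pfkl to Pfkm and, given below, of Pgam1 to Pgam2 do so too. The granulosa, adipocyte and luteal sums separate the PCOS libraries from the Control libraries only. Each of these sums has the exceptions named among its genes. The part of any of these in the ratios was not tested.

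**Figure D4:**
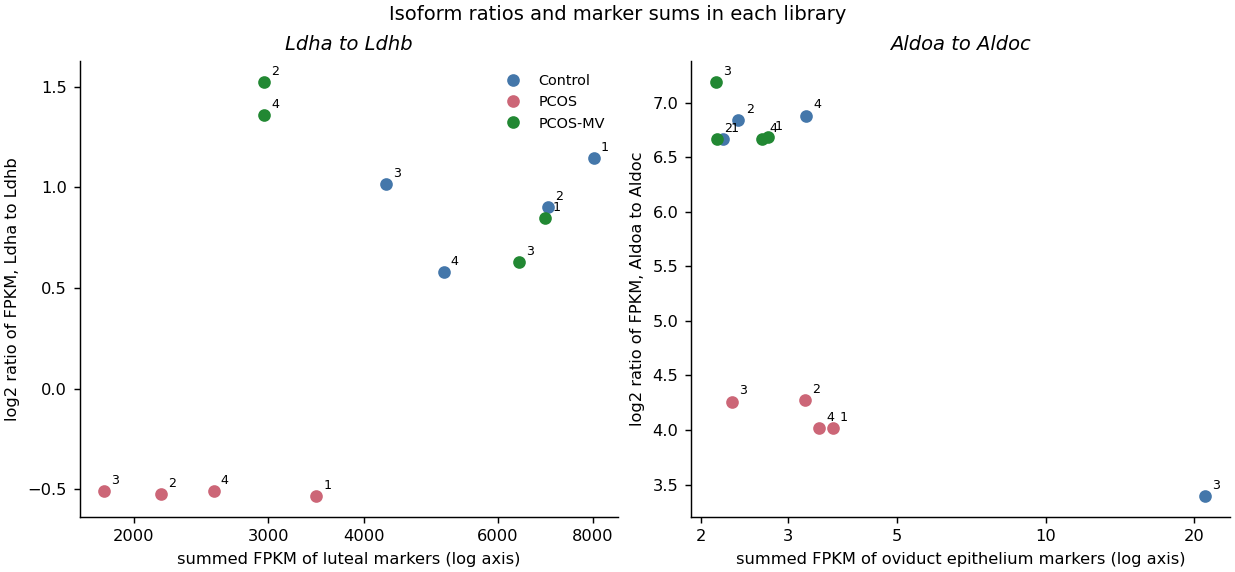
Left, log2 ratio of Ldha to Ldhb (y axis) against the summed FPKM of 6 luteal markers (x axis, log). Right, log2 ratio of Aldoa to Aldoc (y axis) against the summed FPKM of 3 oviduct epithelium markers (x axis, log). Points are the 12 libraries numbered by replicate and coloured by group. PCOS-MV replicates 2 and 4 reach the luteal sums of the PCOS libraries with the highest Ldha to Ldhb. Of the 6 luteal markers, 3 taken singly separate all PCOS-MV from all PCOS libraries. Control replicate 3 lies alone at 21.1 FPKM of oviduct epithelium markers.

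The remaining genes of the pathway were tested one by one with limma on log2(FPKM + 1), a scale that understates the change of low genes, with p-values adjusted over all 13430 genes. Of 33 listed genes, 30 were found and 23 averaged at least 1 FPKM. The list was written with earlier results of these data known, so its shares beside those of all genes are descriptions. In PCOS vs Control, 1 of the 23 was called higher (Ldhd) and 4 lower (Pgk1, Pgam1, Adpgk and Tigar), which is 21.7% of the 23 beside 27.4% of all genes tested (11.9% higher and 15.6% lower). In PCOS-MV vs PCOS, 8 were called higher (Gapdh, Pgk1, Pgam1, Eno1, Pkm, Adpgk, Pfkfb2 and Tigar) and 2 lower (Eno4 and Ldhd), which is 43.5% beside 25.7% (14.3% higher and 11.4% lower). Of these, the calls of Gapdh, Adpgk, Eno4 and Pfkfb2 were lost in 9, 7, 6 and 4 of 13 alternatives, with adjusted p up to 0.104, 0.0906, 0.110 and 0.114 (limma), and those of the other 6 in 0. In PCOS-MV vs Control 0 were called, beside 1 of all genes (0.00745%) and 1142 genes at an unadjusted p under 0.05. The median log2 fold change of the 23 genes was -0.25, 0.40 and 0.00 in the 3 comparisons in this order, beside -0.03, 0.03 and 0.00 over all genes. Leaving out 1 library moved the counts: 7 were called lower in PCOS vs Control without Control replicate 4, and 5 higher in PCOS-MV vs PCOS without PCOS replicate 4. Only 1 was called lower in PCOS-MV vs PCOS without PCOS replicate 4 and without PCOS-MV replicate 2, 3 or 4.

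By step, the early single-form enzyme Gpi, which converts glucose 6-phosphate, was at log2 fold changes of 0.15 (PCOS vs Control) and 0.02 (PCOS-MV vs PCOS) and was not called (adjusted p = 0.388 and 0.866, limma). Pgk1, the first ATP-yielding enzyme, fell by 0.86 on the log2 scale in the first of these comparisons and rose by 1.21 in the second (adjusted p = 0.00048 and 7.59e-05, limma). It was at 140 to 192 FPKM in Control, 90.8 to 96.8 FPKM in PCOS and 191 to 235 FPKM in PCOS-MV. Pgam1, the next enzyme, fell by 1.09 and rose by 0.90 (adjusted p = 0.000716 and 0.00333, limma). Its muscle counterpart Pgam2, at 1.70 to 2.87 FPKM in all libraries, was not called, and the ratio of Pgam1 to Pgam2 was 176 to 243 in Control, 68.0 to 92.2 in PCOS and 161 to 185 in PCOS-MV. The Control range is set by replicates 1 and 2 and is the same without replicate 3. Pgk1, Pgam1 and Gapdh also have processed copies that can share their reads.

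Further down, Eno1, the widespread enolase, rose by 0.67 in PCOS-MV vs PCOS (adjusted p = 0.0115, limma) and was at -0.27 in PCOS vs Control (adjusted p = 0.176, limma). The ratio of Eno1 to the muscle form Eno3 was 117.9 to 246.8 in PCOS-MV and 74.7 to 103.8 in PCOS, without overlap, and 87.4 to 218 in Control with or without replicate 3. Eno2, the neuronal form, was listed at 0 for PCOS replicate 2 and 0.454 FPKM for PCOS-MV replicate 2, so its ratio is not given. Pkm, the pyruvate kinase of most tissues, rose by 0.71 in PCOS-MV vs PCOS (adjusted p = 0.00179, limma). It was at -0.43 in PCOS vs Control and was not called there (adjusted p = 0.0654, limma). Pklr, the liver and red cell form, was at 0.0463 FPKM or less in every library. Tigar, whose product lowers fructose 2,6-bisphosphate, the activator of phosphofructokinase, fell by 1.37 and rose by 0.93 (adjusted p = 0.000382 and 0.00493, limma). Ldhd, a mitochondrial dehydrogenase of D-lactate that is not part of the L-lactate tetramers, took the course of Ldhb, with 0.34 and -0.50 (adjusted p = 0.0103 and 0.0157, limma). The lactate carriers Slc16a1, Slc16a3 and Slc16a7 were not called in any comparison, with means of 33.2, 33.5 and 33.3 FPKM for Slc16a1 in the 3 groups from Control to PCOS-MV.

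**Figure D5:**
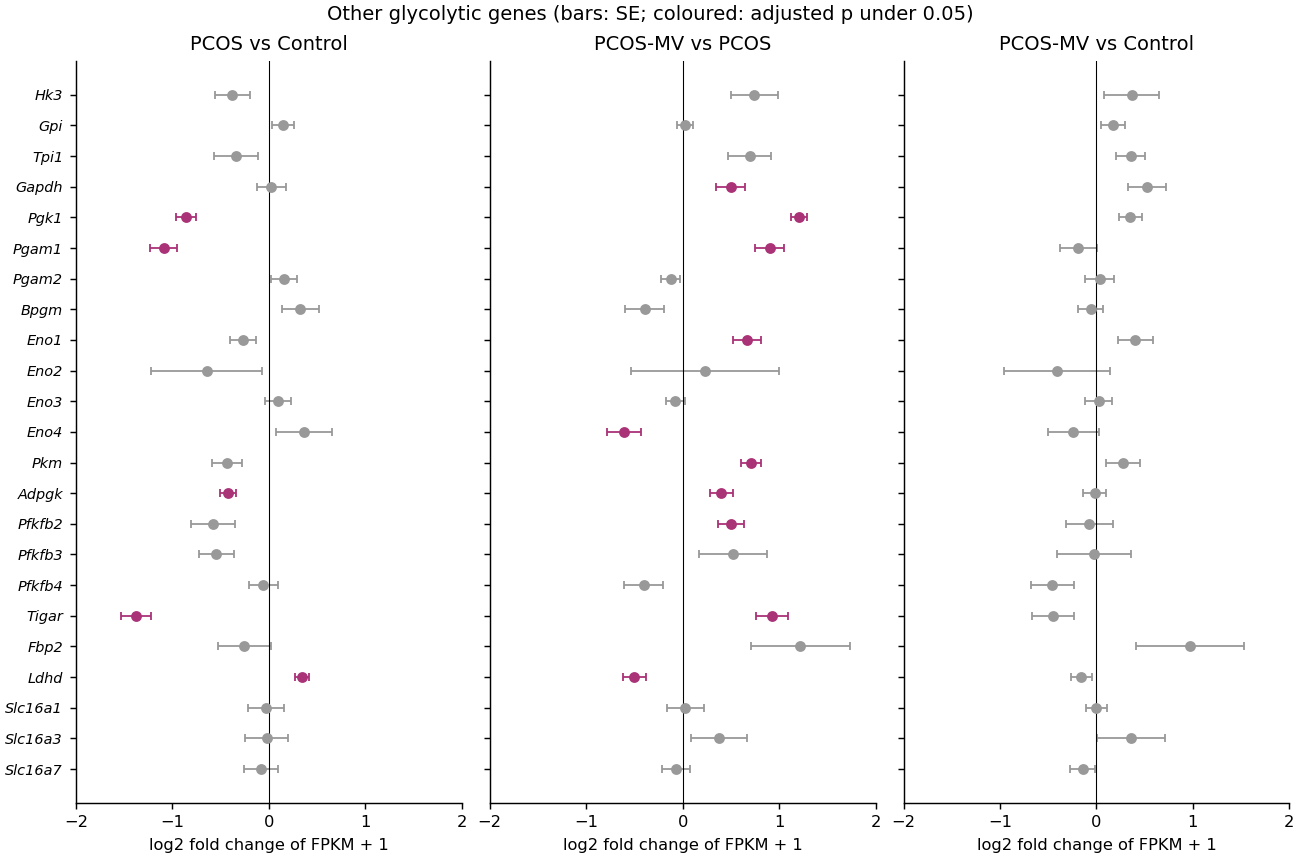
Log2 fold change of FPKM + 1 (x axes) of the 23 other glycolytic genes tested (y axis) in the 3 comparisons. Points are limma estimates, bars are standard errors and coloured points have an adjusted p under 0.05. There are 5 coloured points in PCOS vs Control, 10 in PCOS-MV vs PCOS and 0 in PCOS-MV vs Control.

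For each of 4 ratios the genes most alike in their variation within groups were found, as the Pearson r between log2(FPKM + 1) and the log2 ratio, both as deviations from the group means of the 12 libraries, over 11942 genes with a symbol. The 3 highest for Ldha to Ldhb were Chpt1 (r = 0.97), Aass (0.95) and Arpc1b (0.94). For Hk2 to Hk1 they were Magi3 (0.98), Nrbp2 (0.97) and Zfyve21 (0.97), and for Pfkp to Pfkl they were Selenot, Ttbk2 and Dpysl2 (0.94 each). For Aldoa to Aldoc, Epb41l1, Med10 and Chrac1 were at 0.96, 0.95 and 0.94, but at 0.22, 0.65 and -0.71 without Control replicate 3, so the likeness for this ratio rested on that library. For the other 3 ratios r without Control replicate 3 was 0.92 to 0.98. The points share their libraries, and the highest of many correlations over 12 libraries are large by selection.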

How the data were processed

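The authors sequenced ovary RNA from 12 rats (NEBNext libraries, paired-end reads) and deposited FPKM per gene, in 1 table of 26928 transcript lines that repeat the values of 19730 genes. One line per gene was kept. The submitters' processing notes name STAR 2.5.1b and HTSeq 0.6.0, whereas the methods name HISAT2 and featureCounts. The genome build is not given in the sources used here. Libraries were grouped by title. The columns headed with another abbreviation for the mogroside V group were read as PCOS-MV. The 6 columns of the authors' own comparisons (log2 fold change, p and adjusted p) were not used.

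Ratios of FPKM were taken within each library with no pseudocount and averaged on the log2 scale. An exact permutation test planned for PCOS-MV vs Control is not reported, since the choice of genes used the values of both groups. For the other genes, limma 3.58.1 (R 4.3.3) was applied to log2(FPKM + 1) where the mean over libraries reached 1 FPKM, 2 groups at a time, with Benjamini-Hochberg adjustment over 13430 genes, and the test was run on simulated data first. Ratios and plots were made in Python 3.11.15. The members, gene lists and marker lists were chosen with earlier results of these data known. Named genes are the 9 members, the 2 glycolysis lists and, for 4 ratios, the 3 genes most alike. By symbol, 105 of 116 list genes were found, and some items are not reported here. Promoter sequences are those of RefSeq on GRCr8. Rats are separate animals. Alternatives were the pseudocount, the filter, the model, the scaling, the ratio of group means, each library left out and the replicate number as a block. Metabolite, protein and RT-qPCR data were not analysed here.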

Additional observations from a re-analysis of the deposited data

Results flagged for a closer look

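Over 60 groups of 4 libraries (9 genes and the isoform ratios in each group), the gap from the extreme library to its neighbour was a larger share of the group's range than Dixon's 95% critical value allows in 6, where about 3 are found by chance. In the Control group, Aldoc in replicate 3 was at 40.3 FPKM against 3.33 to 5.37 FPKM in the others (gap 0.945 of the range), and the log2 ratio of Aldoa to Aldoc was 3.39 there against 6.67 to 6.88 (gap 0.938). The log2 ratio of Pfkp to Pfkl in the same library was 1.20 against 1.71 to 1.77 (gap 0.887). In the PCOS group the log2 ratio of Pfkp to Pfkl was 0.21 in replicate 3 against 0.78 to 0.89 (gap 0.844). In the PCOS-MV group Pfkp was at 113.8 FPKM in replicate 1 against 69.8 to 73.5 FPKM (gap 0.915), and the log2 ratio of Aldoa to Aldoc was 7.19 in replicate 3 against 6.66 to 6.69 (gap 0.955). The causes were not tested.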

How the results depend on the processing

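For Ldha to Ldhb, Pfkp to Pfkl and Pfkp to Pfkm the PCOS group did not overlap with either other group. In fits with 1 library left out these differences could therefore move only in size. Neither their direction nor the lack of overlap can change in that way. Their log2 ranges over those fits were -1.54 to -1.35 and 1.47 to 1.76 for Ldha to Ldhb, -1.06 to -0.77 and 0.55 to 0.81 for Pfkp to Pfkl, and -1.37 to -1.08 and 0.76 to 1.10 for Pfkp to Pfkm, the first range of each pair being PCOS vs Control and the second PCOS-MV vs PCOS. Aldoa to Aldoc ranged from -2.65 to -1.49 and from 2.53 to 2.71, and with 1 FPKM added to both genes its difference in PCOS-MV vs PCOS moved from 2.66 to 2.41. Hk2 to Hk1 in PCOS-MV vs Control reversed without Control replicate 3, to 0.017 from -0.39, and ranged from -0.76 to 0.017 with 1 library left out. Pfkp to Pfkm in the same comparison was -0.51 without PCOS-MV replicate 1, where the groups no longer overlapped. The ratio of group means gave -0.97 for Aldoa to Aldoc in PCOS vs Control, against -1.80 as the mean of the library ratios, since Control replicate 3 then weighs more through its Aldoc.

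Leaving out 1 library, the genes called in PCOS-MV vs PCOS ranged from 1272 to 1934 higher, and in PCOS-MV vs Control from 1 to 2 higher and 0 to 2 lower. Among the 23 other glycolytic genes, 4 to 7 were called lower in PCOS vs Control, and 5 to 8 higher and 1 to 2 lower in PCOS-MV vs PCOS. With no filter on low values 1 was called lower in PCOS-MV vs PCOS. With 1 model for all 12 libraries, 1 was called lower in that comparison, and 0 genes were higher and 1 lower in PCOS-MV vs Control.

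Whether the replicate numbers pair the samples is not stated, and the data do not show it for every pair. The deviations of same-numbered libraries from their group means correlated at -0.03 to 0.02 for PCOS with Control, 0.04 to 0.17 for PCOS-MV with PCOS (highest with another number -0.04 to 0.04, and 3 of the 4 pairs above 0.1 and above every other number) and -0.05 to 0.22 for PCOS-MV with Control. With the replicate block the mean differences are the same by construction, and 0 genes were called higher in PCOS-MV vs Control. Adpgk lost its call in PCOS-MV vs PCOS under the block (adjusted p = 0.0695, limma). No depth in reads is given, and this limits what can be said of Ldhc and Pklr, which lay near 0.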
